A study of Mus musculus with 8 samples.

Results

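The genes of the classical axon guidance families were examined in progenitors sorted from the neural tube of mouse embryos, in 4 RNA-seq libraries labelled 53BP1 KO and 4 labelled control. Members were taken by gene symbol: the ephrins and their Eph receptors, the class 3 to 7 semaphorins with the plexins and neuropilins, the Slits with the Robo receptors, and the netrins with the Unc5 receptors and Dcc. This gave 68 of the 32499 genes in the table of counts, of which 34 encode ligands and 34 receptors; several ephrins and transmembrane semaphorins can also act as receptors and are counted here as ligands. Counts were high enough to test 61 members. The other 7 (Efna1, Epha1, Epha6, Epha8, Ntn5, Robo4 and Sema4f) were too low, and among them Epha6 had between 7 and 11 counts per control library and between 1 and 3 per KO-labelled library.

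The study asks how 53BP1, a chromatin protein best known from DNA double-strand break repair, and the H3K27 demethylase UTX act in neural differentiation. All embryos were of strain C57BL/6 at embryonic day 14. The KO-labelled embryos came from Trp53bp1tm1Jc females mated to males that carried in-frame deletions made at 53bp1 with Cas9, and were kept after sequencing of the locus as deletion or KO embryos, without a statement of which library carries which allele; the controls were wild-type embryos. Neural tubes were dissociated with collagenase and progenitors were sorted with NeuroFluor CDr3, a dye that binds the radial glial protein Fabp7; the labels do not say whether the cells of a library were then cultured in differentiation medium, whether embryos were pooled, or that the replicates came from separate embryos, so each p-value reflects no more than the spread among these 8 libraries, part of which may be technical.

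Axon guidance genes encode secreted or membrane-bound cues and the receptors with which a growing axon or a migrating cell reads them. Ephrins bind Eph receptor tyrosine kinases at cell contacts; secreted class 3 semaphorins act through plexins, most of them with a neuropilin as co-receptor; Slits repel through Robo receptors; and netrins attract through Dcc or repel through Unc5 receptors. Many of these genes are also used by radial glia, the neural progenitors that span the wall of the neural tube, and by blood vessels, where Nrp1, Plxnd1, Efnb2, Ephb4, Unc5b and Robo4 have known roles.

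Depth ran from 15343046 to 18189045 counted reads per control library and from 11081419 to 24339621 per KO-labelled library, and 3 counts in a library corresponded to between 0.126 and 0.261 CPM (counts scaled to the same effective library size). Control 4 stood apart. On the log2(CPM + 1) scale, its root mean square distance from its group mean over the 61 tested members was 0.39. The other 7 libraries had 0.18 to 0.24. Over all genes tested control 4 was also the most distant, at 0.28 against 0.15 to 0.21. For many of the members whose log2 fold change rests on control 4, the value without it is also given. Trp53bp1 itself stood at 26.8 ± 0.349 CPM in controls and 27.1 ± 6.36 CPM in KO-labelled libraries (SD over 4), with a log2 fold change of 0.01 (SE 0.14, edgeR adjusted p = 0.960), so its level does not separate the labels. Counts of Xist ran from 23853 to 26134 per control and from 9 to 16 per KO-labelled library, and those of Ddx3y were 0 in each control and 579 to 1064 in each KO-labelled library. Sex and genotype label therefore cannot be told apart in any comparison given here. The 14 progenitor markers summed to 11160 to 13390 CPM (controls) and 10950 to 14090 CPM (KO-labelled). Fabp7 alone, whose protein the sorting dye binds, made up 7591 and 7793 CPM of these sums on average. The 9 microglial markers summed to at most 6.19 CPM.

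Of the 61 tested members, 11 were higher and 8 lower in the KO-labelled libraries at an adjusted p below 0.05 (edgeR's quasi-likelihood test over 15021 genes, Benjamini-Hochberg adjustment), or 31.1% of the members. Over all genes tested 30.0% passed, 16.1% higher and 13.9% lower, beside 18.0% and 13.1% of the members, so the number of calls was near the background. The median log2 fold change was -0.01 over the members and 0.00 over all genes, and without control 4 it was -0.15 and -0.01. The CPM of the groups did not overlap for 14 members, or 23.0%, against 29.9% of all genes. Among the receptors 7 rose and 4 fell, and among the ligands 4 rose and 4 fell. Without KO-labelled 1 or KO-labelled 4 the number that fell was 5. The members that passed were as follows. Robo1, Robo2, Plxna1, Sema3a, Sema3g, Efnb3, Ephb3, Epha3, Epha4, Epha5 and Sema6a rose, and Sema7a, Efna4, Efna3, Epha2, Ephb6, Nrp1, Plxna2 and Sema5b fell. The plot of fold changes by family shows calls in both directions within the A-type and B-type Eph receptors, the A-type plexins and the class 5 to 7 semaphorins. Of the ephrins that passed, those of the A class fell and that of the B class rose.

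**Figure D1:**
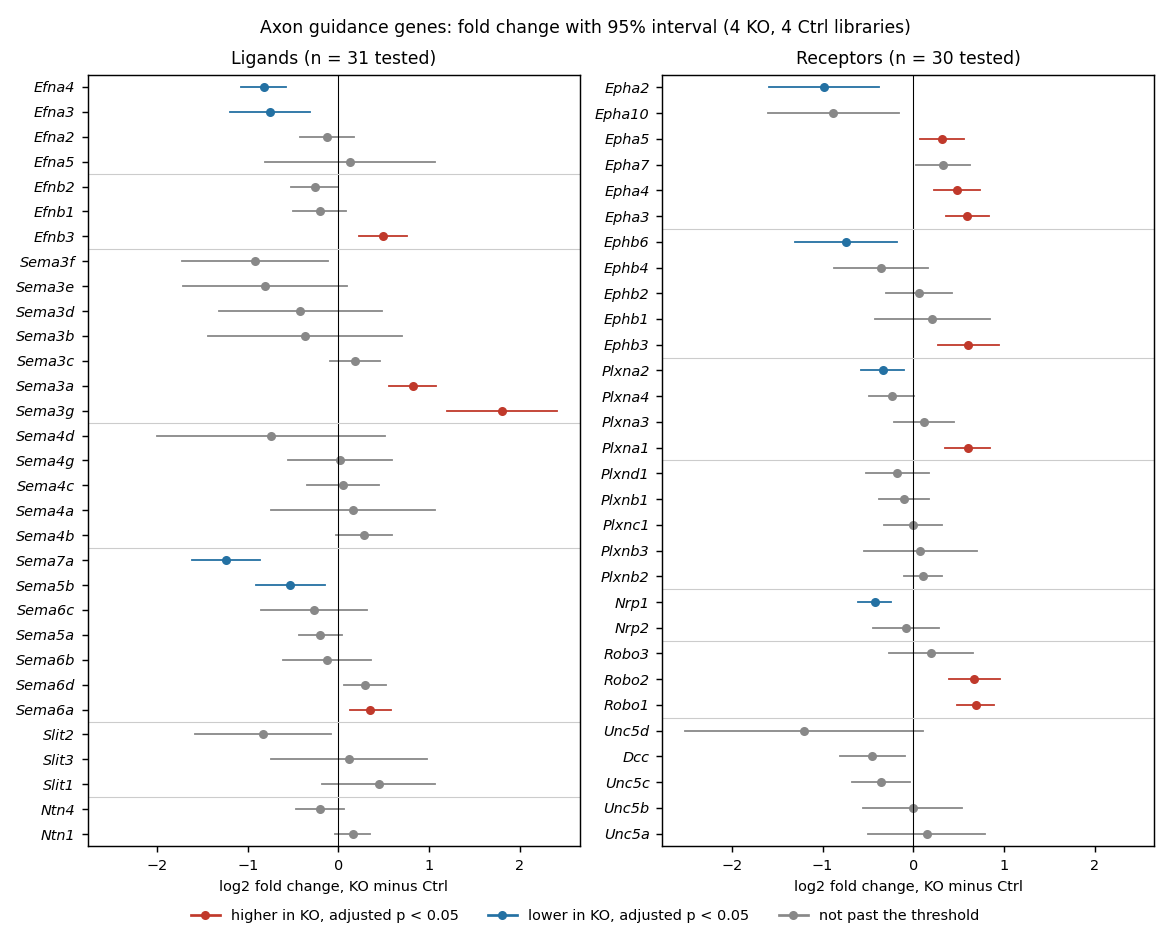
Log2 fold change (KO-labelled minus control, x axis) of each of the 61 tested members with its 95% interval, ligands on the left and receptors on the right, grouped by family; red marks members higher and blue members lower at an adjusted p below 0.05. Sema3g (1.80) lies farthest to the right and Sema7a (-1.24) is the lowest member that passed, while no member of the netrin, Slit, class 4 semaphorin, Plxnb to Plxnd or Unc5 and Dcc groups passed.

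The start regions of the 2 members with the smallest adjusted p in each direction are shown because these 4 changes are the best separated of the module. Each is 300 bases from RefSeq on GRCm38.p6, 250 before and 50 after a transcription start, 5′ to 3′ on the gene's strand, with CpG dinucleotides in capitals. The counts were made on an earlier build, so these coordinates serve only the sequences. Robo1, higher in the KO-labelled libraries, lies at chr16:72662899-72663198 (+ strand), and Sema3a, also higher, at chr5:13396534-13396833 (+ strand). Sema7a and Efna4, both lower, lie at chr9:57939862-57940161 (+ strand) and chr3:89337979-89338278 (- strand).
Robo1: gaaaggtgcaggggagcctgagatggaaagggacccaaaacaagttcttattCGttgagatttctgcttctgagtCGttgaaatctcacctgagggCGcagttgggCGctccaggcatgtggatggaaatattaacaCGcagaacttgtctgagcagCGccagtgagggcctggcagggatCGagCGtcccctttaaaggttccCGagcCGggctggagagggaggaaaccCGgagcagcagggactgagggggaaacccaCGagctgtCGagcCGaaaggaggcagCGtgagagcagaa
Sema3a: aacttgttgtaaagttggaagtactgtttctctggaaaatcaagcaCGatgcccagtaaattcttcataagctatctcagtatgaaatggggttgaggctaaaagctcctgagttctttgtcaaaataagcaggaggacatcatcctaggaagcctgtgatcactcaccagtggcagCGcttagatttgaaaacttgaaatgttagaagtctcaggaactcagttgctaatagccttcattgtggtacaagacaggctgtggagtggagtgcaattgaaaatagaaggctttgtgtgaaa
Sema7a: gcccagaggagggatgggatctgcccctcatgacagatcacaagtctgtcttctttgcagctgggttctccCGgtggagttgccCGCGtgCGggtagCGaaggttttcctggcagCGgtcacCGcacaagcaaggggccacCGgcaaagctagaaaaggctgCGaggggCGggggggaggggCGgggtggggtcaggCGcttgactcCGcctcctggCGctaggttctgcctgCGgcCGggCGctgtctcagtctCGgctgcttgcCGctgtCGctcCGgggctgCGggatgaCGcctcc
Efna4: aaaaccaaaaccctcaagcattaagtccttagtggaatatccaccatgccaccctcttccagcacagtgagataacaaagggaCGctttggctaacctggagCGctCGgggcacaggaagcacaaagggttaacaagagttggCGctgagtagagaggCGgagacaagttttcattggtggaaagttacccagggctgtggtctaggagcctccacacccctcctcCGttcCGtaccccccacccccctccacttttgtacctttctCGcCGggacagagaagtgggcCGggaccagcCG
The Sema3a window held 2 CpG, the Efna4 window 11, the Robo1 window 15 and the Sema7a window 23, against a median of 7 over all 32851 windows of this length. Windows were found for 58 of the 68 members, 74 in all, with a median of 19.5 CpG. The letters GGGCGG of the GC box, searched on both strands, stood in 70.3% of the member windows and 35.7% of all windows; of these 4, only the Sema7a window held them. The letters TATAAA, searched likewise, stood in 2.70% of the member windows and 13.6% of all windows, and in none of these 4. The full set of windows came from 27025 genes and was not matched to the members by gene type or expression. A match is a description of the letters and not a binding site.

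Levels can be compared between genes only per length, and were set per kilobase of annotated exon (GENCODE M21, matched by symbol for all 68 members). Ntn1 was the most abundant member, at 59.7 ± 3.94 CPM per kb in controls and 66.6 ± 5.95 in KO-labelled libraries (SD over 4). Plxnb2 followed at 39.7 ± 4.63 and 42.7 ± 2.89, and Ntn4 at 34.0 ± 6.43 and 29.5 ± 2.06 CPM per kb. In controls the SD ranges of Plxnb2 and Ntn4 met. Plxna1 followed at 20.2 ± 1.52 CPM per kb in controls, beside Plxnb1 at 17.5 ± 2.94, whose SD range met its own. In KO-labelled libraries Plxna1 stood at 30.6 ± 5.11 CPM per kb, and its SD range met that of Ntn4. Among ligands other than netrins, Efna4 and Slit1 led in the controls (12.8 ± 1.62 and 10.5 ± 4.83 CPM per kb). The netrin receptors among the members were far below Ntn1. Dcc was at 1.35 ± 0.379 and 0.987 ± 0.101, and Unc5c, the most abundant Unc5 gene, at 1.12 ± 0.240 and 0.874 ± 0.0968 CPM per kb. The most abundant Robo gene was Robo1, at 5.79 ± 0.464 and 9.35 ± 0.906 CPM per kb.

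**Figure D2:**
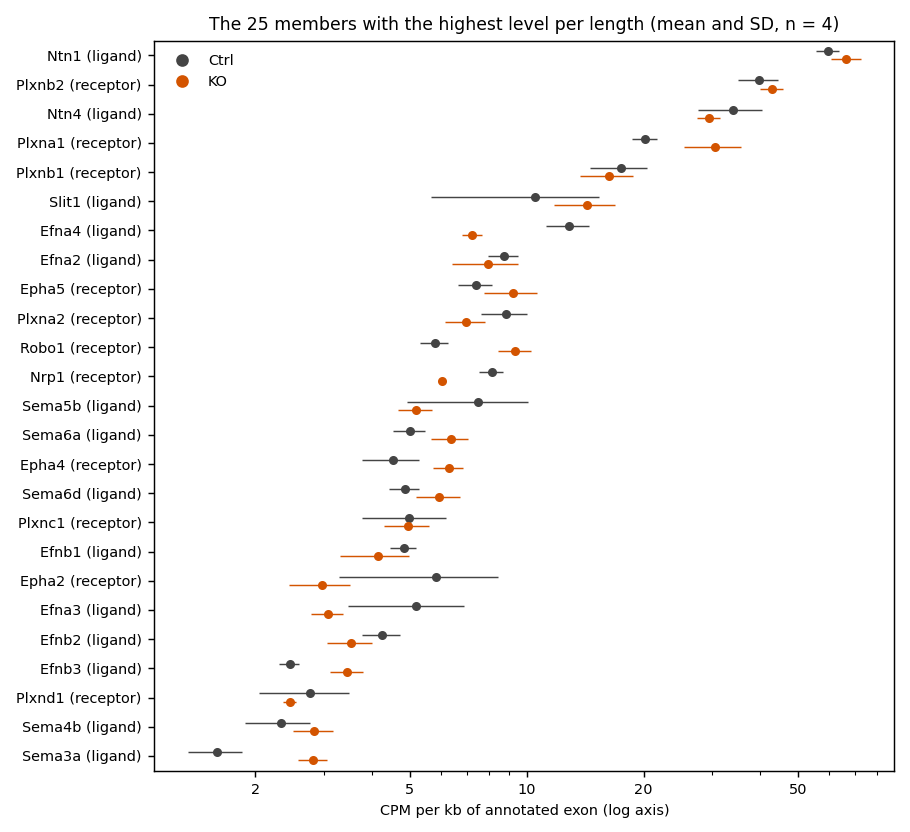
Mean CPM per kb of annotated exon (log axis) with SD over 4 libraries for the 25 members with the highest level per length; grey is control and orange KO-labelled. Ntn1 leads at 59.7 CPM per kb in the controls, and the wide control bars of Slit1, Epha2 and Sema5b come with a control 4 value far from the other controls.

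Ephrin-A ligands are tethered to the membrane by a lipid anchor and ephrin-B ligands by a transmembrane segment. In the A class 2 of 4 tested members fell and none rose. Efna4 had 24.4, 19.4, 18.8 and 19.5 CPM in controls 1 to 4, against 10.7, 11.7, 11.7 and 12.3 CPM in KO-labelled 1 to 4. Each KO-labelled library lay below each control, and the log2 fold change was -0.83 (SE 0.12), edgeR adjusted p = 1.17e-04. Efna3, its neighbour on chromosome 3, had 17.2, 12.9, 13.2 and 7.11 CPM in controls 1 to 4, against 6.79, 7.23, 8.46 and 7.46 CPM in KO-labelled 1 to 4. Control 4 lay within the KO-labelled range while controls 1 to 3 lay above it, and the log2 fold change was -0.76 (SE 0.21), edgeR adjusted p = 0.0130, or -0.96 without control 4. The annotation places an antisense transcript across exons of each of these 2 genes. The strand setting of the counting is not given in the sources used here, so its reads cannot be told apart from theirs. The same holds for Plxna1, Plxna4, Plxnb1, Epha10 and Unc5c, whose exons also overlap a gene on the opposite strand. Exons of Ephb1, Ephb4, Sema4c and Unc5a do too, but there the overlapping gene was itself counted. How reads shared by both genes were assigned is not given in the sources used here. Efna2, the ephrin-A with the highest mean CPM over both groups, had 19.7, 16.5, 20.1 and 18.1 CPM in controls 1 to 4, against 13.6, 14.7, 19.7 and 19.9 CPM in KO-labelled 1 to 4. Its groups overlapped, with a log2 fold change of -0.13 (SE 0.14) and a 95% interval of -0.42 to 0.17. Efna5 had at most 1.09 CPM in any library and did not pass.

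In the B class 1 of 3 members rose. Efnb3 had 8.17, 7.92, 8.0 and 7.11 CPM in controls 1 to 4, against 10.9, 12.1, 9.53 and 11.4 CPM in KO-labelled 1 to 4. All KO-labelled libraries lay above all controls (log2 fold change 0.49, SE 0.12, edgeR adjusted p = 0.00849). Efnb2, a ligand that also marks arteries and the ephrin-B with the highest CPM, had 27.2, 28.5, 26.8 and 34.0 CPM in controls 1 to 4, against 20.9, 23.0, 24.4 and 28.6 CPM in KO-labelled 1 to 4. The groups overlapped in part, and the log2 fold change of -0.26 (SE 0.12) did not pass (edgeR adjusted p = 0.114). Per length the X-linked Efnb1 was above it, at 4.82 ± 0.367 and 4.14 ± 0.845 against 4.25 ± 0.480 and 3.53 ± 0.473 CPM per kb. Efnb1 had a log2 fold change of -0.21 (SE 0.14) and did not pass either.

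Class 3 semaphorins are the secreted members, and the best known is Sema3a, a repellent that acts through Nrp1 and A-type plexins. Of 7 tested, 2 rose and none fell. Sema3a had 24.2, 22.4, 24.8 and 17.1 CPM in controls 1 to 4, against 39.5, 43.0, 34.7 and 39.2 CPM in KO-labelled 1 to 4. The lowest KO-labelled library stood well above the highest control, and the log2 fold change was 0.82 (SE 0.12), edgeR adjusted p = 1.84e-04. Sema3g, known from vessel and perivascular development, had 0.548, 1.14, 1.10 and 1.75 CPM in controls 1 to 4, against 4.43, 3.40, 4.34 and 3.48 CPM in KO-labelled 1 to 4, from 75 counts in all controls together and 289 in the KO-labelled libraries. It was low in every library, yet the groups did not overlap and its log2 fold change of 1.80 (SE 0.28) was the largest of the module (edgeR adjusted p = 2.85e-04). Sema3c had a log2 fold change of 0.18 (SE 0.13) and did not pass. The other 4, Sema3b, Sema3d, Sema3e and Sema3f, had at most 2.26 CPM in any library and log2 fold changes from -0.92 to -0.37, none of which passed.

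Class 4 semaphorins are membrane-bound ligands of B-type plexins, and none of the 5 tested passed. The most abundant, Sema4b, had 14.6, 12.7, 15.4 and 9.83 CPM in controls 1 to 4, against 14.3, 18.3, 14.6 and 16.8 CPM in KO-labelled 1 to 4. Control 4 was the lowest library and the groups overlapped (log2 fold change 0.28, SE 0.14, 95% interval of -0.03 to 0.59), and without control 4 the log2 fold change was 0.16. Sema4c was at 8.62 ± 1.65 and 8.96 ± 2.01 CPM, and the other tested genes of the class had at most 3.42 CPM in any library.

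Of the 7 class 5 to 7 semaphorins, 2 fell and 1 rose. Sema7a, the lipid-anchored member that promotes axon growth through integrins and also binds Plxnc1, had 5.54, 5.64, 6.51 and 7.76 CPM in controls 1 to 4, against 2.81, 2.44, 2.42 and 2.98 CPM in KO-labelled 1 to 4. Every KO-labelled library was below every control, by 2.39-fold between the means, with a log2 fold change of -1.24 (SE 0.17) and edgeR adjusted p = 1.08e-04. Plxnc1 itself did not pass, with a log2 fold change of -0.01 (SE 0.15) and a 95% interval of -0.33 to 0.31, or 0.16 without control 4. Sema5b, a transmembrane semaphorin, had 43.4, 41.3, 47.5 and 80.2 CPM in controls 1 to 4, against 35.2, 34.6, 34.8 and 42.1 CPM in KO-labelled 1 to 4. Control 4 was far above all other libraries; the log2 fold change was -0.53 (SE 0.18) with edgeR adjusted p = 0.0362, and -0.27 with edgeR adjusted p = 0.0609 without control 4. The call was also lost without KO-labelled 1, 2 or 3.

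Sema6a, which signals with Plxna2 and Plxna4 in migrating neurons and axons, had 38.0, 44.3, 47.3 and 45.8 CPM in controls 1 to 4, against 57.0, 62.5, 47.7 and 56.5 CPM in KO-labelled 1 to 4. The lowest KO-labelled library was just above the highest control, and the log2 fold change was 0.35 (SE 0.11), edgeR adjusted p = 0.0222; the call was lost without control 1 or 2 or without KO-labelled 1, 2 or 4. Sema6d, the only member on chromosome 2, where Trp53bp1 also lies, had 52.0, 51.1, 56.6 and 45.3 CPM in controls 1 to 4, against 66.4, 72.7, 57.2 and 55.1 CPM in KO-labelled 1 to 4. Its mean CPM over both groups was the highest of these semaphorins. In controls the mean of Sema5b was higher, but only through control 4. In controls 1 to 3 Sema5b lay below Sema6d. Per length the mean of Sema5b was above that of Sema6d in controls and below it in KO-labelled libraries. The SD range of Sema6d per length met those of Sema5b and Sema6a in both groups, so their order is not settled. The groups overlapped for Sema6d (log2 fold change 0.29, SE 0.11, edgeR adjusted p = 0.0563). Without KO-labelled 3 it passed, at 0.33. Sema5a, Sema6b and Sema6c had fold changes between -0.27 and -0.13 and did not pass.

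No Slit passed. Slit1, the most abundant of the 3, had 73.3, 68.7, 86.0 and 20.8 CPM in controls 1 to 4, against 82.4, 96.8, 64.2 and 95.4 CPM in KO-labelled 1 to 4. Controls 1 to 3 lay inside the KO-labelled range and control 4 alone was far below, so that the log2 fold change of 0.44 (SE 0.29, edgeR adjusted p = 0.279) was 0.15 (edgeR adjusted p = 0.431) without that library; with no filter on low counts, which changes the fit for all genes, Slit1 passed. Slit2 had a log2 fold change of -0.83 (SE 0.35) at 5.17 ± 1.80 and 2.98 ± 1.52 CPM, edgeR adjusted p = 0.0877; it passed without control 1 or without KO-labelled 3. Slit3 had at most 1.14 CPM in any library. Netrins are laminin-related secreted cues, and Ntn1, the floor plate and ventricular zone attractant, had 402, 342, 380.4 and 374 CPM in controls 1 to 4, against 426, 427, 366 and 454 CPM in KO-labelled 1 to 4. The groups overlapped, and the log2 fold change was 0.16 (SE 0.09) with a 95% interval of -0.04 to 0.35. Ntn4 had a log2 fold change of -0.21 (SE 0.12) and did not pass with all libraries; without control 4, where it was lowest among the controls (93.6 CPM against 131.0 to 150.6), it was lower in the KO-labelled libraries (-0.34, edgeR adjusted p = 0.00978).

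**Figure D3:**
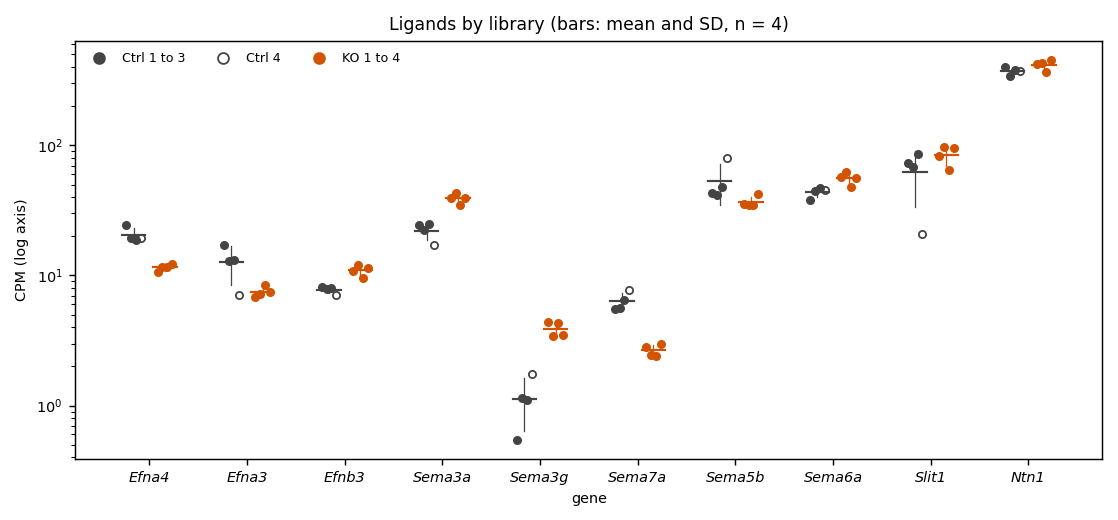
CPM (log axis) per library for the 8 ligands that passed, with Slit1 and Ntn1 beside them; horizontal bars are means, vertical bars SD (n = 4), and open circles mark control 4. Sema3a, Sema3g and Efnb3 separate upward and Efna4 and Sema7a downward, while control 4 lies apart for Slit1 (20.8 CPM) and Sema5b (80.2 CPM).

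Among the 6 tested EphA receptors 3 rose and 1 fell. Epha3 had 9.92, 11.8, 12.4 and 12.5 CPM in controls 1 to 4, against 17.5, 16.8, 17.2 and 18.7 CPM in KO-labelled 1 to 4. The KO-labelled libraries were all higher and close to each other (log2 fold change 0.60, SE 0.11, edgeR adjusted p = 0.00114). Epha4, which binds ephrins of both classes, had 33.4, 33.8, 33.0 and 45.6 CPM in controls 1 to 4, against 54.9, 51.3, 44.5 and 52.4 CPM in KO-labelled 1 to 4. Controls 1 to 3 were below all KO-labelled libraries and control 4 overlapped them; the log2 fold change was 0.48 (SE 0.12, edgeR adjusted p = 0.00735) and 0.60 without control 4. Epha5, the most abundant EphA receptor by CPM, had 118, 135, 134 and 109 CPM in controls 1 to 4, against 141, 151, 135 and 188 CPM in KO-labelled 1 to 4. Its lowest KO-labelled library was only just above its highest control, and the rise of 0.31 (SE 0.11) passed narrowly (edgeR adjusted p = 0.0482). That call was lost when any library but KO-labelled 3 was left out, and without KO-labelled 4 the edgeR adjusted p was 0.214. Epha7 had 14.6 ± 2.85 and 18.3 ± 1.62 CPM and did not pass (0.33, SE 0.14). Without control 3 it passed (0.43, edgeR adjusted p = 0.0420), as it did with no filter on low counts.

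Epha2, a receptor of epithelia and early embryonic cells as well as of neural tissue, fell. It had 35.4, 27.8, 36.0 and 10.2 CPM in controls 1 to 4, against 17.1, 14.1, 13.1 and 11.2 CPM in KO-labelled 1 to 4. Controls 1 to 3 were higher than all KO-labelled libraries, whereas control 4 was the lowest of all 8. The log2 fold change was -0.98 (SE 0.28), edgeR adjusted p = 0.0175; without control 4 it was -1.26 (edgeR adjusted p = 2.87e-06), and without control 1, control 3 or KO-labelled 4 the call was lost. Epha10 had at most 2.26 CPM in any library and did not pass, but did without control 3 or with a stricter filter on low counts.

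EphB receptors, which bind mainly ephrin-B, moved both ways, with 1 of 5 higher and 1 lower. Ephb3 had 9.76, 11.6, 10.5 and 14.2 CPM in controls 1 to 4, against 16.3, 20.7, 13.2 and 19.9 CPM in KO-labelled 1 to 4. Only control 4 reached into the KO-labelled range, and the log2 fold change was 0.61 (SE 0.16), edgeR adjusted p = 0.00989. Ephb6, a receptor without kinase activity, was low, with 167 counts in all controls together and 110 in the KO-labelled libraries. Its groups were adjacent without overlap; the log2 fold change of -0.74 (SE 0.26, edgeR adjusted p = 0.0463) lost its call when any library but control 1 was left out, with values from -0.81 to -0.63. Ephb2 (0.06, SE 0.17, or 0.19 without control 4), Ephb1 (0.21, SE 0.30) and Ephb4 (-0.36, SE 0.24) did not pass. Without KO-labelled 2 Ephb4 fell (-0.63, edgeR adjusted p = 0.0339). Without control 4, where it was highest (8.99 CPM), Ephb1 rose (0.68, edgeR adjusted p = 0.0143).

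Plexins are the signalling receptors of semaphorins, and the A type carries the signal of class 3 semaphorins bound to neuropilin. Plxna1 had 191, 163, 193 and 185 CPM in controls 1 to 4, against 289, 281, 214 and 325 CPM in KO-labelled 1 to 4. All KO-labelled libraries were above all controls, KO-labelled 3 by the least (log2 fold change 0.60, SE 0.12, edgeR adjusted p = 0.00133). Plxna2 had 139, 139, 146 and 182 CPM in controls 1 to 4, against 126, 132, 99.9 and 121 CPM in KO-labelled 1 to 4. It ran the other way without overlap, with a log2 fold change of -0.34 (SE 0.11, edgeR adjusted p = 0.0339), or -0.25 and no longer past the threshold without control 4; the call was also lost without control 3 or without KO-labelled 1, 3 or 4. Plxna4 and the X-linked Plxna3 had log2 fold changes of -0.24 (SE 0.12) and 0.12 (SE 0.15) and did not pass.

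None of the 5 B, C and D type plexins passed. Plxnb2, the most abundant plexin by CPM and known for its part in neural tube closure and progenitor division, had 311, 259, 309 and 346 CPM in controls 1 to 4, against 352, 337, 299 and 332 CPM in KO-labelled 1 to 4. The groups overlapped, and the log2 fold change was 0.11 (SE 0.10) with a 95% interval of -0.10 to 0.32. Plxnb1 was at 168 ± 28.2 and 156 ± 24.5 CPM, with a log2 fold change of -0.11 (SE 0.13) that was 0.01 without control 4. The X-linked Plxnb3 was at 7.21 ± 4.03 and 7.52 ± 1.43 CPM and was highest in control 4 (12.9 CPM). Its log2 fold change of 0.08 (SE 0.29) was 0.51 without that library (edgeR adjusted p = 0.0670). Plxnd1, best known from endothelium, had a log2 fold change of -0.18 (SE 0.16); without control 4 it fell (-0.35, edgeR adjusted p = 0.0173).

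Neuropilins bind class 3 semaphorins and VEGF. Nrp1 had 76.2, 79.8, 87.2 and 74.5 CPM in controls 1 to 4, against 60.1, 59.2, 58.6 and 59.0 CPM in KO-labelled 1 to 4. The KO-labelled libraries were nearly level with each other and all below the controls, with a log2 fold change of -0.42 (SE 0.08) and edgeR adjusted p = 0.00170. Nrp2 was at 5.99 ± 0.873 and 5.71 ± 0.991 CPM and did not pass (-0.08, SE 0.17, or -0.19 without control 4). Nrp1 is expressed by endothelium as well as by neural cells. Beside its fall, the 10 endothelial markers summed to 10.7 to 18.0 CPM (controls) and 4.36 to 8.45 CPM (KO-labelled). Kdr made up 6.54 and 2.45 CPM of these sums on average, and Flt1 2.55 and 1.16 CPM. These 2 of the 4 tested markers were lower (Kdr -1.44, SE 0.30 and Flt1 -1.21, SE 0.32, the second named after its values were seen). None was higher, and 13.9% of all genes tested fell. Cldn5 and Cdh5, which define endothelial cells, had means of at most 0.317 CPM in either group. The part of endothelial cells in the fall of Nrp1 was not tested. In bulk samples, fewer cells of a type and less RNA per cell cannot be told apart.

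Of the 3 tested Robo receptors, which bind Slits, 2 rose and none fell. Robo1 had 92.7, 88.0, 95.6 and 106 CPM in controls 1 to 4, against 156, 158, 134 and 170.1 CPM in KO-labelled 1 to 4. All KO-labelled libraries were above all controls, by 1.61-fold between the means (log2 fold change 0.69, SE 0.09, edgeR adjusted p = 8.97e-05). Robo2, which lies on chromosome 16 as Robo1 does, had 10.4, 13.0, 13.1 and 12.4 CPM in controls 1 to 4, against 17.9, 22.2, 16.2 and 21.7 CPM in KO-labelled 1 to 4. Its groups did not overlap either (0.67, SE 0.13, edgeR adjusted p = 0.00145). Both calls held in each of the 16 alternative settings. Robo3, known from commissural axons, was at 2.09 ± 0.170 and 2.41 ± 0.329 CPM (0.20, SE 0.22, not past the threshold). Robo4, the endothelial member, had at most 6 counts in any library.

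None of the 5 netrin receptors among the members (Dcc and the Unc5 genes) passed. Neo1, which also binds netrins but is not a member, rose and is given with the other cues. Over the 20 tested members of the families without a call (netrins, Slits, class 4 semaphorins, B to D type plexins, Unc5 and Dcc), 3 (Slit2, Dcc and Unc5c) had an unadjusted p below the threshold, DESeq2 called 0 and limma voom 5 (Ntn1, Ntn4, Slit2, Unc5c and Unc5d). Over all genes, DESeq2 called 2406 higher and 2108 lower of 16309, and limma voom 3127 higher and 2974 lower of 15021. The 20 members were grouped because edgeR called none of them, so few calls with the other tools follow in part from that choice. Unc5c, the most abundant Unc5 gene by CPM, had 15.6, 23.0, 20.3 and 26.5 CPM in controls 1 to 4, against 17.7, 18.6, 14.3 and 16.3 CPM in KO-labelled 1 to 4. Control 1 lay below most KO-labelled libraries and the other controls above them (log2 fold change -0.35, SE 0.15, edgeR adjusted p = 0.0897). Dcc was at 17.8 ± 4.99 and 13.0 ± 1.33 CPM, a log2 fold change of -0.45 (SE 0.17, edgeR adjusted p = 0.0552); it passed without control 1 or 2, with either other scaling, with no filter on low counts or with the stricter one, and was -0.26 without control 4. Unc5c passed without control 1. Unc5a, Unc5b and Unc5d had at most 2.93 CPM in any library and did not pass. Beside these receptors of growing axons, 5 of 15 tested neuronal markers passed, 3 lower and 2 higher, where 30.0% of all genes tested passed. The 16 listed summed to 574 to 735 CPM (controls) and 543 to 608 CPM (KO-labelled). Map2, which did not pass, alone made up 389 and 345 CPM of these sums on average. The part of neurons in the levels of Dcc and the Unc5 genes was not tested.

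**Figure D4:**
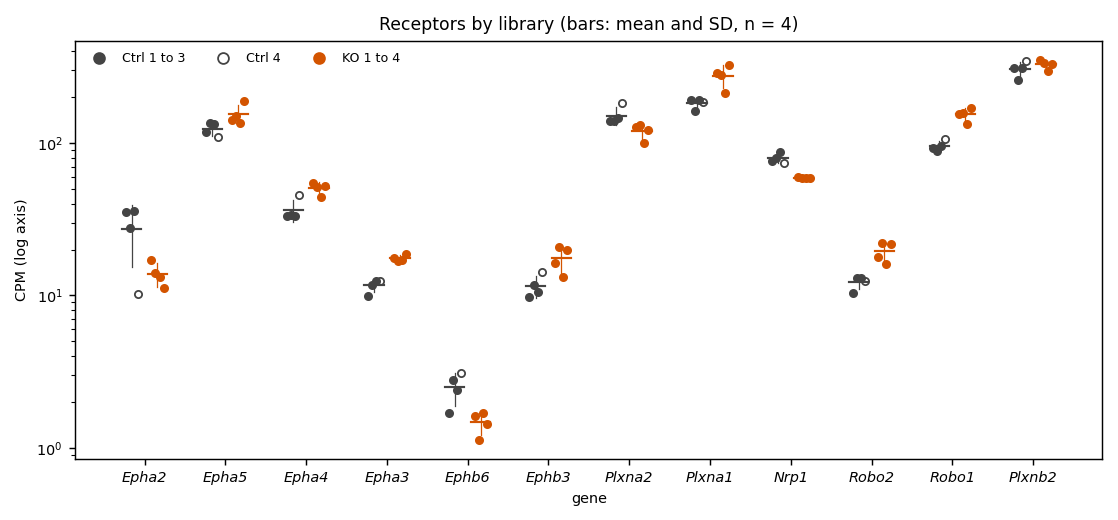
CPM (log axis) per library for the 11 receptors that passed, with Plxnb2 beside them; horizontal bars are means, vertical bars SD (n = 4), and open circles mark control 4. Robo1, Robo2, Epha3 and Plxna1 separate upward and Nrp1 downward, while for Epha2 control 4 (10.2 CPM) lies below the KO-labelled libraries.

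Other cues and adhesion partners of the pathway were taken from a list of 35 genes, written with earlier results of these data known. Of the 30 that could be tested, 10 rose and 4 fell, with a median log2 fold change of 0.22. Over all genes tested, 16.1% rose and 13.9% fell. Vegfa, the ligand that shares Nrp1 with Sema3a, had 11.1, 9.55, 11.2 and 6.27 CPM in controls 1 to 4, against 66.4, 64.6, 68.9 and 69.0 CPM in KO-labelled 1 to 4. It separated completely and by far, with a log2 fold change of 2.81 (SE 0.15, edgeR adjusted p = 6.80e-09). Draxin, a secreted repellent that binds Dcc and netrin, had 36.5, 35.5, 37.8 and 25.3 CPM in controls 1 to 4, against 79.7, 84.2, 68.5 and 93.9 CPM in KO-labelled 1 to 4. Its groups did not overlap (1.27, SE 0.13, edgeR adjusted p = 7.26e-06). The adhesion gene Nfasc rose from 14.6 ± 5.69 to 30.9 ± 5.03 CPM (1.09, SE 0.22). Neo1, the Dcc relative that binds netrins and Rgm proteins, rose from 34.1 ± 2.83 to 59.6 ± 7.12 CPM (0.80, SE 0.11), and Flrt3, a partner of Unc5 and Robo receptors, fell from 15.2 ± 1.65 to 8.43 ± 0.627 CPM (-0.85, SE 0.12); these 2 were chosen after their values were seen. The number that rose was 6 without control 1, KO-labelled 2 or KO-labelled 4, and the number that fell was 2 without KO-labelled 1 or 3.

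Of 63 tested signalling proteins downstream of the receptors, 6 rose and 11 fell, where 30.0% of all genes passed, and the median log2 fold change was -0.03. The number that fell was 7 without KO-labelled 1. Mical2, of the family of oxidoreductases that disassemble actin below plexins, had 94.6, 87.2, 95.8 and 37.2 CPM in controls 1 to 4, against 36.0, 35.7, 24.6 and 24.5 CPM in KO-labelled 1 to 4. The groups did not overlap (-1.39, SE 0.24, edgeR adjusted p = 6.07e-04). Pak3, a kinase effector of Rac and Cdc42, fell from 98.8 ± 21.4 to 54.5 ± 0.723 CPM (-0.86, SE 0.13), and Ablim1, an actin-binding protein linked to netrin signalling, rose from 30.7 ± 5.94 to 52.1 ± 0.559 CPM (0.76, SE 0.13). The Slit-Robo GTPase-activating proteins, named here after their values were seen, split: Srgap1 rose (0.71, SE 0.13), Srgap2 fell (-0.52, SE 0.09), and Srgap3 did not pass, at 30.9 ± 3.83 and 30.8 ± 6.82 CPM. Dpysl2, the collapsin response mediator of Sema3a signalling, was also chosen after the fact and fell from 939 ± 79.2 to 613 ± 51.4 CPM (-0.61, SE 0.09).

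Markers of the cell types that express these genes also moved, where 30.0% of all genes tested passed. Of 9 tested astrocyte markers 8 rose, and the 10 listed summed to 331 to 454 CPM (controls) and 1083 to 1258 CPM (KO-labelled), led by Gfap (3.26, SE 0.22), Agt (2.62, SE 0.35) and S100b (2.19, SE 0.11). Of 14 progenitor markers 7 rose and 3 fell, with Nes lower (-0.90, SE 0.13) and Msi1 (0.87, SE 0.14) and Sox2 (0.78, SE 0.10) higher. Among neuronal markers, Snap25 (-1.16, SE 0.22) and Syt1 (-0.83, SE 0.15) fell and Tubb3 rose (0.68, SE 0.23, or 1.06 without control 4); leaving out control 2 or 3, or KO-labelled 1 or 4, left no neuronal marker higher, and leaving out control 1, or KO-labelled 2 or 3, left 1. Of 9 oligodendrocyte lineage markers 3 rose and 2 fell, with Mbp (1.14, SE 0.16) higher and Pdgfra (-0.64, SE 0.16) lower, and the 10 listed summed to 2802 to 3132 and 2727 to 3201 CPM. Mesenchymal markers were lower in 6 of 10 tested, with Ogn (-2.89, SE 0.32), Col6a3 (-2.40, SE 0.31) and Col3a1 (-2.09, SE 0.27) among them, and the sum over 12 genes was 121 to 156 CPM (controls) and 116 to 130 CPM (KO-labelled); Thy1, which neurons also express, was part of it with 96.5, 79.7, 88.0 and 9.25 CPM in controls 1 to 4, against 101, 105, 108 and 94.4 CPM in KO-labelled 1 to 4 and did not pass. Muscle markers fell in 3 of 4 tested (Myh8 -0.88, SE 0.13), with sums of 33.3 to 43.9 and 18.0 to 21.2 CPM. Myh8 alone made up 32.0 and 17.3 CPM of these sums on average. Of 4 tested neural crest markers 2 rose, with sums of 20.2 to 28.1 and 28.8 to 34.8 CPM, and 1 rose without control 2, control 3 or KO-labelled 4. Among the 2 was Sox10 (0.46, SE 0.13), which is also among the 3 oligodendrocyte lineage markers that rose. Sox10 made up 19.2 and 26.3 CPM of the neural crest sums on average. The 1 microglial marker tested, Ptprc, did not pass with all libraries (edgeR unadjusted p = 0.0498) and was lower without KO-labelled 2. No listed marker was at 0 in all 8 libraries. The part of these cell types in the changes of guidance genes was not tested.

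Of the 19 members that passed, 13 kept their call in each of 16 alternative settings: Efna3, Efna4, Efnb3, Epha3, Epha4, Ephb3, Nrp1, Plxna1, Robo1, Robo2, Sema3a, Sema3g and Sema7a. The other 6, Epha2, Epha5, Ephb6, Plxna2, Sema5b and Sema6a, lost it in at least 5 of them and kept their direction. Over these settings the log2 fold change of Robo1 ran from 0.64 to 0.76 and that of Sema3a from 0.70 to 0.88, while that of Epha2 ran from -1.26 to -0.83 and that of Epha5 from 0.20 to 0.38, as the plot of alternative settings shows.

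**Figure D5:**
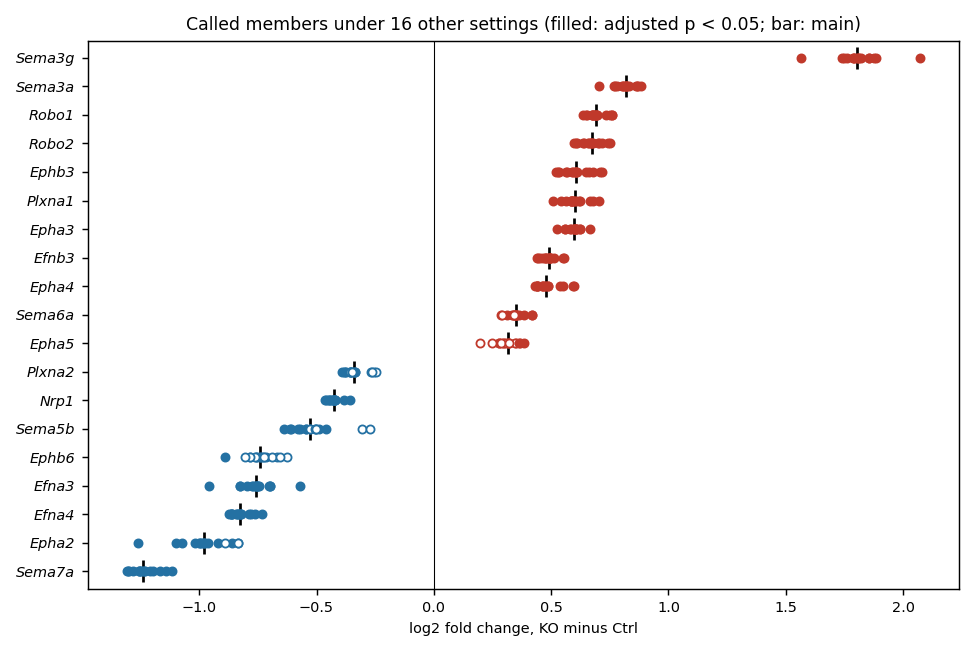
Log2 fold change (KO-labelled minus control, x axis) of the 19 members that passed, as reported (black bar) and under 16 other settings (circles, filled where the adjusted p stayed below 0.05). Sema3g, Sema3a and the Robo genes stay filled throughout, and open circles appear for Sema6a, Epha5, Plxna2, Sema5b, Ephb6 and Epha2.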

How the data were processed

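Total RNA was made into stranded libraries and read from both ends, per the labels' protocols. The authors deposited whole-number read counts per gene symbol for 8 libraries, 1 column each. HTSeq 0.6.1p1, CASAVA and the builds NCBIM37 and mm9 stand in the submitters' processing notes; an aligner or strand setting is not given in the sources used here. No pair of libraries in a group agreed within sampling noise (chi-square per degree of freedom at least 4.45), so all were kept. Genes passing filterByExpr (15021) were scaled by TMM and tested with edgeR 4.0.16 (quasi-likelihood, R 4.3.3), Benjamini-Hochberg adjusted, threshold 0.05, without covariates. SE is the log2 fold change over the square root of F. CPM were computed on effective (TMM) library sizes. The fit was tested on simulated data. Alternatives were DESeq2 1.42.0, limma 3.58.1 (voom), robust dispersion, 2 scalings, 2 filters, a replicate block and leaving out each library. Exon lengths and chromosomes came from GENCODE M21 and start regions from RefSeq, both by symbol, on GRCm38. Named were all members past the threshold, the most abundant member of each family by CPM, and up to 3 genes with the largest changes per list at 5 CPM or more; members past the threshold with at least 5 CPM, and Sema3g, are given per library. A gene that this rule takes is not reported here. The lists are other cues, downstream signalling, neuronal, progenitor, astrocyte, oligodendrocyte, endothelial, mesenchymal, microglial, neural crest and muscle genes. Members and lists were chosen with earlier results of these data known.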

Additional observations from a re-analysis of the deposited data

Results flagged for a closer look

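Among 54 groups of 4 libraries (27 named members, each in 2 groups), 5 held a library set apart from the other 3 by more than Dixon's 95% critical value, where chance gives about 1 group in 20. Control 4 accounted for 3 of them, each time as the highest: Epha4 at 45.6 CPM with the next control at 33.8, Plxna2 at 182 CPM with the next at 146, and Sema5b at 80.2 CPM with the next at 47.5. Sema5b was also set apart in KO-labelled 4, at 42.1 CPM against 35.2 in the next library. Efna4 was highest in control 1, at 24.4 CPM against 19.5 in the next control.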

How the results depend on the processing

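The number of members that rose, 11, ran from 9 to 12 when 1 library was left out. The number that fell, 8, ran from 5 (without KO-labelled 1 or 4) to 10 (without control 1). With limma voom with quality weights 13 members fell and 13 rose. That setting called more genes in general, with 2974 lower and 3127 higher against 2087 and 2412 with edgeR. The median log2 fold change of the members, -0.01, lay between -0.146 (without control 4) and -0.0094 (without KO-labelled 3) with 1 library left out, and was 0.0582 with no filter on low counts, a setting that moved the median of all genes to 0.07. In all genes, with 1 library left out, between 1753 and 2432 rose and between 1497 and 2193 fell. No member past the threshold changed direction. Of the 42 tested members without a call, 15 gained one in at least 1 setting. Replicate numbers are shared between the groups in the labels, but the deviations of same-numbered libraries correlated at 0.16, 0.20, -0.20 and 0.04, so the numbers were not taken as pairs. With the replicate number as a block, 10 members rose and 8 fell, with calls lost for Epha5 and Ephb6 and gained for Slit2. Intervals of members with few counts were wide, as for Sema3b (95% interval of -1.44 to 0.70 on the log2 scale), and among the low class 3 semaphorins limma voom called Sema3e and Sema3f.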

Other observations

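The A-type plexins Plxna1 and Plxna2 were called in opposite directions, Plxna2 not without control 4. The ratio of Plxna1 to Plxna2 counts, which takes out library depth but not gene length, was 1.37, 1.17, 1.32 and 1.01 in controls 1 to 4 and 2.28, 2.12, 2.14 and 2.68 in KO-labelled 1 to 4. The lowest KO-labelled ratio was above the highest control ratio, which follows from the 2 genes each separating the groups, in opposite directions. The ratio of Robo1 to Slit1 counts was 1.26, 1.28 and 1.11 in controls 1 to 3 and 1.89, 1.63, 2.09 and 1.78 in the KO-labelled libraries, while control 4, in which Slit1 was lowest, had 5.11. Both ratios were chosen after their genes' values were seen and were not tested.

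The 5 tested members on chromosome 16 (Epha3, Ephb3, Robo1, Robo2 and Sema5b) all passed, 4 higher and 1 lower, where 28.6% of the 441 tested genes of that chromosome passed. Epha6, on the same chromosome, was too low to test. This count was noticed in the data and was not tested. None of the 3 X-linked members (Efnb1, Plxna3 and Plxnb3) passed, beside 32.6% of 527 tested X-linked genes.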
